A study of Mus musculus with 15 samples.

Results

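The genes described here are 10 matricellular genes: *Postn*, *Thbs1*, *Thbs2*, *Tnc*, *Sparc*, *Spp1*, *Ccn1*, *Ccn2*, *Cthrc1* and *Pcolce2*. They were chosen by gene symbol from a list of secreted matrix proteins. The rule uses no measured value, but the list was drawn up with earlier results of these data known. All 10 were found among the 20910 genes of the cultured mouse RPE (mRPE) count table, and all 10 among the 25038 genes of the RPE/choroid count table. Bulk RNA was sequenced to ask how loss of *Prom1*, a membrane glycoprotein gene, changes gene expression in the retinal pigment epithelium. Libraries of mRPE cells were compared between WT (n = 4), *Prom1*-KO clone 22 (KO22, n = 3) and *Prom1*-KO clone 26 (KO26, n = 2). Libraries of dissected RPE/choroid were compared between WT mice (n = 3) and mice labelled *Prom1*-KO (n = 3).

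The mRPE cells came from pooled C57/BL6J mice and were immortalized with HPV E6/E7, so all mRPE groups share that treatment. KO cells were made by giving Cas9-expressing, puromycin-selected mRPE cells a guide RNA against *Prom1*, with scrambled guide RNA named beside it in the study's methods. KO22 and KO26 are each a single line, so the line and the loss of *Prom1* cannot be told apart within either. In the tissue, *Prom1*fl/fl mice carried RPE65-Cre and received tamoxifen by gavage, which targets the deletion to the RPE, while choroidal cells are in the same samples. The sample titles name the tissue groups only as WT and Prom1_KO. Whether the WT mice carried Cre or received tamoxifen is not set out here. Effects of Cre or tamoxifen were therefore not told apart from the loss of *Prom1* in tissue. Age and strain of these mice were not used here. Replicates are numbered in library order. Replicate 1 of each mRPE group carries the library prefix 8995 and the other mRPE replicates carry 9262, and these prefixes were taken here as the sequencing batches that the study mentions. The study calls the mRPE replicates biological, but the labels do not say whether replicates were separate cultures or animals, so p-values measure the spread between these samples.

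Total counts per library were 10187978 to 27537863 in WT mRPE, 11863633 to 20760399 in KO22, and 24175274 and 8076188 in KO26. In tissue they were 51742746 to 59625225 in WT and 48154444 to 61766179 in libraries labelled *Prom1*-KO. One tissue library stood apart in its share of mitochondrial RNA. The mitochondrial ribosomal RNAs took 80.4% of counts in *Prom1*-KO replicate 3. That left 12130562 other counts there and at least 17726719 in each of the other tissue libraries. Tissue values of the matricellular genes, *Prom1* and the called markers are therefore also given without that library. The mitochondrial share was 63.2% and 62.9% in *Prom1*-KO replicates 1 and 2, and 58.7%, 59.6% and 55.3% in WT tissue. The tissue groups thus did not overlap in it. In mRPE the share was 15.3% to 19% in WT, 11.1% to 13.3% in KO22, and 14.4% and 11.3% in KO26. Both clones lay below WT there. The part of this share in the matricellular levels was not tested. Levels are CPM, a library's counts scaled to a common total by TMM, a factor that assumes most genes to be alike between libraries. CPM per kilobase of exon is used wherever genes are compared with each other.

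*Prom1* itself was not analysed here in mRPE. In tissue, *Prom1* was at 48.7, 49.6 and 53.3 CPM in WT and at 49.9, 48.1 and 35.5 CPM in the libraries labelled *Prom1*-KO. The groups overlapped on the TMM scale, with a log2 fold change of -0.18 ± 0.16 (SE, adjusted p = 0.824), or -0.06 without *Prom1*-KO replicate 3. On library totals *Prom1* was at 58.23, 55.71 and 70.72 CPM in WT and at 53.37, 51.69 and 17.34 CPM in tissue labelled *Prom1*-KO. The groups did not overlap on that scale, as for 27.3% of all genes. Library totals include the mitochondrial ribosomal RNAs, whose share was larger in every library labelled *Prom1*-KO than in WT tissue. Counts cover the whole gene and the samples hold cells outside the RPE, so this level does not check the labels. RPE markers differed between the groups. *Rpe65*, the visual cycle isomerase, was at 280, 204 and 287 CPM in WT and at 1.13, 5.97 and 4.48 CPM in tissue labelled *Prom1*-KO (log2 fold change -6.06 ± 0.62, adjusted p = 0.0191). All 9 listed RPE markers were detected in tissue, where their summed level was 1670, 977 and 1410 CPM in WT and 159, 251 and 173 CPM in tissue labelled *Prom1*-KO. *Ttr* had the highest mean CPM per kilobase of them in both groups. Of these markers, 4 of 9 were called lower (*Rpe65*, *Lrat*, *Rdh5* and *Rrh*), at an adjusted p under 0.05 and beyond a log2 fold change of 1.2. Without *Prom1*-KO replicate 3, *Lrat* (-3.57), *Rdh5* (-1.91) and *Rrh* (-2.00) were called lower and *Rpe65*, at -6.19, did not pass the test (adjusted p = 0.0942). In bulk samples such as these, fewer cells of a type and less RNA per cell cannot be told apart.

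In mRPE cells, 4 of the 9 RPE markers were analysed (*Best1*, *Rdh5*, *Rrh* and *Mitf*), and their summed level was 10.6 to 15.9 CPM in WT, 18.1 to 41.3 CPM in KO22 and 8.35 and 10.2 CPM in KO26. In KO22, *Rrh* (1.74 on the log2 scale) and *Mitf* (1.41) were called higher, *Rdh5*, at -1.13 (adjusted p = 0.00393), stayed under the fold limit, and *Best1*, at 0.80, did not pass the test (adjusted p = 0.159). The 41.3 CPM belong to KO22 replicate 1, with 17.4 CPM of *Best1* and 20.1 CPM of *Mitf*. *Best1* had the highest mean CPM per kilobase of these in each mRPE group, and *Rpe65* was not analysed here in mRPE. Of the 6 fibroblast and stroma markers, 5 were analysed, and these summed to 7680 to 10500 CPM in WT, 4090 to 6870 CPM in KO22, and 12000 and 13100 CPM in KO26. *Col1a1* had the highest mean CPM per kilobase of these in each mRPE group. The sum follows its most abundant genes: in KO22, 2 of the 5 were called lower (*Col1a1* and *Pdgfra*) and 1 higher (*Fbln1*, 3.58 on the log2 scale), and *Dcn* was at 0.61.

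Matricellular proteins are secreted into the extracellular matrix but act mainly as regulators rather than as scaffold: they bind collagens, growth factors and cell surface receptors such as integrins and CD44, and their expression is often high in development and wound repair. In the eye, several of them are known from Bruch's membrane, from the trabecular meshwork and from fibrotic membranes that contain RPE cells. *Ccn1* and *Ccn2* are standard transcriptional targets of YAP/TEAD, and *Ccn2*, *Postn* and *Thbs1* also of TGF-beta signalling. *Pcolce2* encodes a secreted enhancer of procollagen C-proteinase, and *Cthrc1* a secreted glycoprotein of repairing vessels and stroma.

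In KO22 mRPE, 6 of the 10 genes were lower than in WT (*Postn*, *Cthrc1*, *Ccn2*, *Thbs1*, *Thbs2* and *Ccn1*) and 2 were higher (*Pcolce2* and *Spp1*), at an adjusted p under 0.05 with an absolute log2 fold change over 1.2. Over all 20455 genes tested, 13.8% were lower and 11.4% higher. The KO22 and WT libraries did not overlap for any of the 10 genes, and for 50.1% of all genes they did not overlap. In KO26, none of the 10 genes was higher and none was lower at these limits (edgeR), where 1.21% of 20737 genes were higher and 0.719% lower. An unadjusted p under 0.05 was reached by 2 of the 10 in KO26 and by 20.1% of all genes (edgeR). DESeq2 called 1 of the 10 lower, *Thbs1* (log2 fold change -1.24, adjusted p = 0.0392), and 269 of all 20737 genes lower. In the test between the clones, KO22 had 2 of the 10 genes higher and 3 lower, against 7.56% and 10.7% of all genes. In tissue none of the 10 was higher and none was lower with edgeR or with DESeq2, where 0% of 24926 genes were higher and 0.189% lower with edgeR. There, 4 of the 10 had an unadjusted p under 0.05, as did 8.3% of all genes. Over all genes in tissue, 993 were higher and 1075 lower at that unadjusted p, and DESeq2 called 83 higher and 188 lower. The comparisons of KO22 and of KO26 with WT share the WT libraries.

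**Figure D1:**
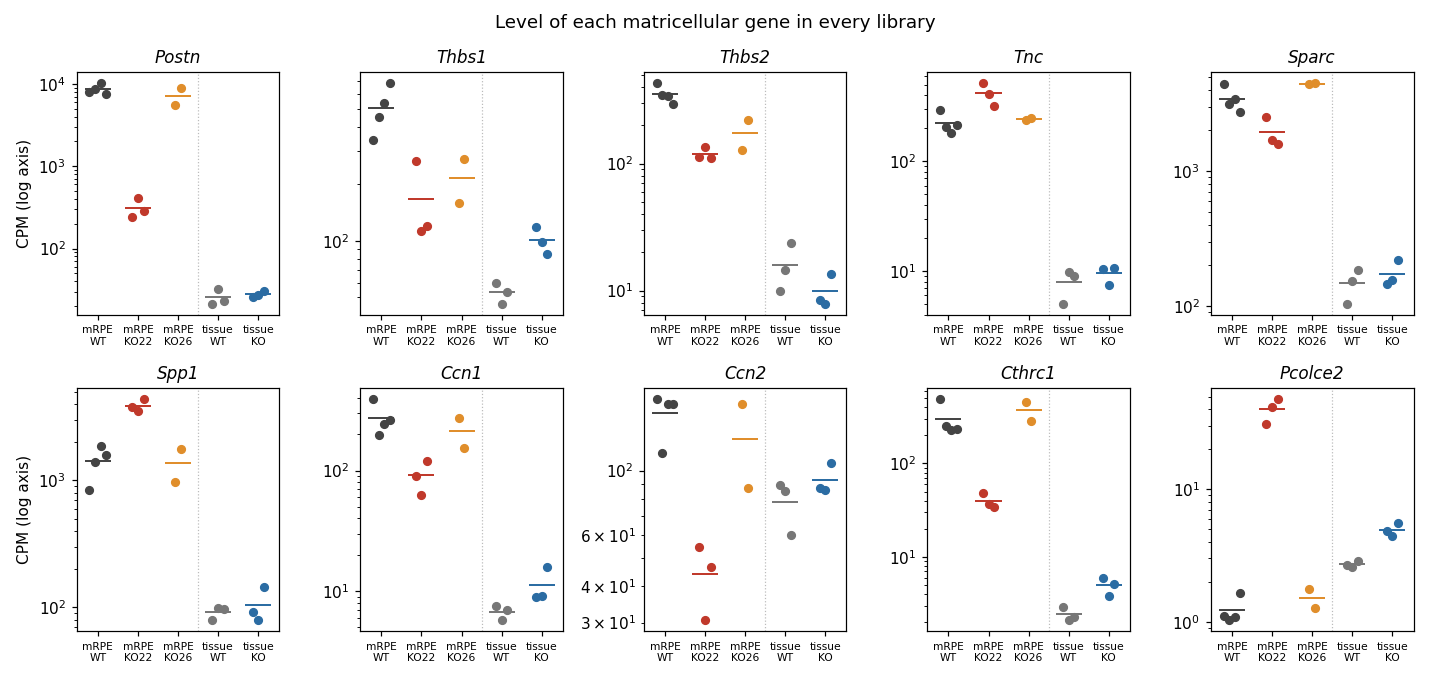
Each panel plots one matricellular gene as CPM on a log axis, with a point for every library and a line at the group mean, for mRPE (WT, KO22, KO26) left of the dotted line and RPE/choroid (WT and labelled *Prom1*-KO) right of it; culture and tissue were scaled separately. The KO22 libraries lie between 240 and 414 CPM for *Postn*, under all WT libraries, and between 31 and 47.8 CPM for *Pcolce2*, over all WT libraries.

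Among the collagen-binding proteins, *Postn* (periostin, chr3:54268501-54298471, plus strand, GRCm39) showed the greatest fall of the 10. Its level was 7900, 8680, 10300 and 7590 CPM in WT and 240, 414 and 287 CPM in KO22. All KO22 libraries were far below all WT libraries. Against WT, *Postn* in KO22 fell by 4.77 ± 0.22 on the log2 scale (SE, adjusted p = 6.98e-07). It was -5.04 within batch 8995 and -4.67 within batch 9262, from log2 of CPM plus 0.5. The KO26 libraries were at 5530 and 8900 CPM, and the lower of them lay below the WT range. For KO26 against WT the log2 fold change was -0.19 ± 0.21 (adjusted p = 0.656), and for KO22 against KO26 it was -4.58 ± 0.24 (adjusted p = 1.13e-06). By qPCR, the study reports lower *Postn* in its *Prom1*-KO lines than in WT. Those qPCR measurements were not analysed here.

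*Sparc* (chr11:55285317-55314067, minus strand), a calcium- and collagen-binding glycoprotein, was at 4420, 3150, 3410 and 2730 CPM in WT and at 2510, 1710 and 1580 CPM in KO22. Those groups did not overlap, although KO22 replicate 1 came close to the lowest WT library. The log2 fold change was -0.89 ± 0.14 with an adjusted p of 0.000491, so *Sparc* passed the limit on p and not that on fold change. It was -0.82 within batch 8995 and -0.91 within batch 9262. In KO26, *Sparc* was at 4370 and 4490 CPM, around the highest WT library (log2 fold change 0.30 ± 0.18, adjusted p = 0.367). KO22 against KO26 gave -1.17 ± 0.19 (adjusted p = 0.000881), just under the fold limit. Without KO22 replicate 1 this difference was -1.28 and without KO26 replicate 1 it was -1.43, both past the limit.

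*Cthrc1* (chr15:38940246-38950518, plus strand) was at 488, 250, 228 and 236 CPM in WT and at 48.2, 36.9 and 34.3 CPM in KO22. The batch 8995 library was the highest of the WT group, and every KO22 library was below every WT library. *Cthrc1* in KO22 fell by 2.92 ± 0.15 on the log2 scale (adjusted p = 9.5e-07), and the change was -3.33 and -2.72 within batches 8995 and 9262. The KO26 libraries, at 454 and 285 CPM, were inside the WT range (log2 fold change 0.15 ± 0.15, adjusted p = 0.628). KO22 was lower than KO26 by a log2 fold change of -3.06 ± 0.17 (adjusted p = 1.28e-06).

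*Pcolce2* (chr9:95519466-95580207, plus strand) moved the opposite way. It was near the detection limit in WT, at 1.11, 1.03, 1.08 and 1.65 CPM from 11 to 28 counts, and at 31, 41.8 and 47.8 CPM from 359 to 866 counts in KO22. The groups were wide apart. *Pcolce2* rose in KO22 by a log2 fold change of 5.03 ± 0.19 (adjusted p = 3.23e-07), with 4.29 within batch 8995 and 4.71 within batch 9262, where the added 0.5 CPM makes the difference smaller. The KO26 libraries had 1.76 and 1.27 CPM from 38 and 11 counts, overlapping WT (0.45 ± 0.31, adjusted p = 0.441). KO22 against KO26 gave 4.58 ± 0.30 (adjusted p = 3.71e-06).

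*Spp1* (osteopontin, chr5:104582165-104589235, plus strand), a ligand of integrins and CD44, was at 838, 1410, 1870 and 1580 CPM in WT and at 3760, 3550 and 4370 CPM in KO22. Every KO22 library was above every WT library. *Spp1* rose by a log2 fold change of 1.55 ± 0.20 (adjusted p = 0.000178), with 2.17 within batch 8995 and 1.29 within batch 9262. KO26, at 973 and 1760 CPM, overlapped WT (0.08 ± 0.22, adjusted p = 0.871). KO22 was higher than KO26 by 1.49 ± 0.25 (adjusted p = 0.0011). The difference was 1.15, under the fold limit, without KO22 replicate 1. It was also 1.15 within batch 9262 alone, with its lone KO26 library.

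*Tnc* (tenascin C, chr4:63878014-63965443, minus strand), a large anti-adhesive glycoprotein of remodelling tissue, was at 297, 208, 181 and 213 CPM in WT and at 520, 410 and 322 CPM in KO22. The groups did not overlap, and the lowest KO22 library was close to the highest WT library. The change of 0.85 ± 0.12 on the log2 scale had an adjusted p of 0.000355 and stayed under the fold limit, with 0.81 and 0.86 within batches 8995 and 9262. KO26 was at 237 and 249 CPM, inside the WT range (0.05 ± 0.17, adjusted p = 0.897). KO22 against KO26 gave 0.81 ± 0.19 (adjusted p = 0.00718), also under the fold limit.

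The thrombospondins are multidomain glycoproteins that bind CD47 and CD36, and the one encoded by *Thbs1* can activate latent TGF-beta. *Thbs1* (chr2:117941974-117957616, plus strand) was at 343, 456, 538 and 688 CPM in WT, at 265, 113 and 120 CPM in KO22 and at 159 and 273 CPM in KO26. Both clones were below the WT range. For KO22 the log2 fold change was -1.71 ± 0.35 (adjusted p = 0.00266), and the batches differed in its size, with -0.37 in batch 8995 (1 library each) and -2.24 in batch 9262. For KO26 it was -1.23 ± 0.41 (adjusted p = 0.127), with -1.11 and -1.01 within the batches. Without KO26 replicate 2 the KO26 value was -1.93 (adjusted p = 0.0835). The clones overlapped, with a difference of -0.38 ± 0.40 (adjusted p = 0.503). This difference was -1.2 without KO22 replicate 1 and 0.22 without KO26 replicate 2. Within batch 9262 alone, with its lone KO26 library, it was -1.25, past the fold limit.

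*Thbs2* (chr17:14885761-14914528, minus strand) was at 432, 347, 340 and 296 CPM in WT, at 113, 135 and 110 CPM in KO22 and at 129 and 219 CPM in KO26. Again both clones were below every WT library. *Thbs2* in KO22 fell by 1.57 ± 0.15 on the log2 scale (adjusted p = 2.65e-05), with -1.93 and -1.42 within batches 8995 and 9262. For KO26 it was -1.02 ± 0.23 (adjusted p = 0.0393), which passed the limit on p and not that on fold change. Within the batches, KO26 minus WT was -1.74 and -0.57. Without KO26 replicate 2, *Thbs2* in KO26 was at -1.57 (adjusted p = 0.0239), past both limits. The difference between the clones was -0.55 ± 0.23 (adjusted p = 0.0907), and 0 without KO26 replicate 2.

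The CCN proteins bind integrins and heparan sulphate. *Ccn1* (chr3:145352720-145355738, minus strand) was at 391, 196, 243 and 263 CPM in WT, at 89.9, 63 and 121 CPM in KO22 and at 274 and 155 CPM in KO26. KO22 was below both other groups, while KO26 reached into the WT range. The change in *Ccn1* was -1.57 ± 0.25 on the log2 scale for KO22 (adjusted p = 0.00055, with -2.11 and -1.40 within batches 8995 and 9262) and -0.49 ± 0.28 for KO26 (adjusted p = 0.349). The difference between the clones was -1.08 ± 0.28 (adjusted p = 0.0142), under the fold limit, and past it at -1.23 with no batch term, -1.44 without KO22 replicate 3 and -1.3 without KO26 replicate 2.

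*Ccn2* (chr10:24471333-24474900, plus strand) was at 176, 115, 169 and 170 CPM in WT, at 54.5, 30.6 and 46.6 CPM in KO22 and at 170 and 86.9 CPM in KO26. KO22 was below all other mRPE libraries. *Ccn2* changed by -1.89 ± 0.20 on the log2 scale for KO22 (adjusted p = 5.14e-05, with -1.68 and -1.97 within batches 8995 and 9262) and -0.48 ± 0.24 for KO26 (adjusted p = 0.295). KO22 against KO26 gave -1.43 ± 0.24 (adjusted p = 0.00137), and without KO26 replicate 1 it was -1.12, under the fold limit.

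**Figure D2:**
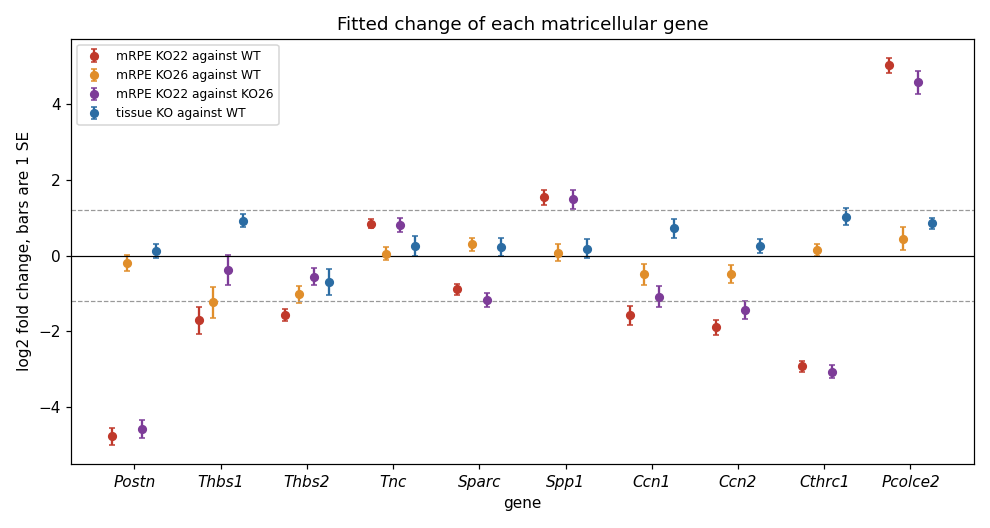
The plot shows the fitted log2 fold change of each gene, with bars of 1 SE, for KO22 against WT, KO26 against WT, KO22 against KO26 and tissue labelled *Prom1*-KO against WT; dashed lines mark the fold limit of 1.2 in both directions. *Postn* at -4.77 and *Pcolce2* at 5.03 lie at the extremes for KO22 against WT, and the tissue values lie between -0.69 and 1.03.

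In tissue, the genes with the smallest p among the 10 were *Pcolce2*, *Thbs1*, *Cthrc1* and *Ccn1*, and each was numerically higher in the libraries labelled *Prom1*-KO. On the TMM scale the groups did not overlap for these 4, and for 14.6% of all genes. On library totals they overlapped for all 4, with lower levels in *Prom1*-KO replicate 3, whose TMM factor was 0.4881. The total of that library includes the mitochondrial ribosomal RNAs at 80.4% of counts. *Pcolce2* was at 2.69, 2.60 and 2.87 CPM in WT and at 4.81, 4.46 and 5.54 CPM in tissue labelled *Prom1*-KO. On library totals replicate 3 of the latter was at 2.704 CPM and the lowest WT library at 2.928. The log2 fold change of 0.86 ± 0.15 did not pass the test with edgeR (adjusted p = 0.123). *Thbs1* was at 60, 46.3 and 53.2 CPM in WT and at 119, 98.1 and 85.3 CPM in tissue labelled *Prom1*-KO. On library totals replicate 3 of the latter was at 41.62 CPM, below the lowest WT library at 52.02 (fitted log2 fold change 0.92 ± 0.17, adjusted p = 0.14).

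*Cthrc1*, at 2.93, 2.11 and 2.26 CPM in WT and at 5.98, 3.84 and 5.14 CPM in tissue labelled *Prom1*-KO, did not pass the test with edgeR either (log2 fold change 1.03 ± 0.22, adjusted p = 0.199). *Ccn1* was at 7.49, 5.75 and 6.98 CPM in WT and at 8.91, 9.04 and 15.7 CPM in tissue labelled *Prom1*-KO. Its highest library was the replicate 3 with the large mitochondrial share (0.73 ± 0.25, adjusted p = 0.474). With DESeq2, the adjusted p was under 0.05 for 3 of the 10 genes (*Thbs1*, *Pcolce2* and *Cthrc1*), each under the fold limit, and for 1.8% of all genes. For the other 6 genes the groups overlapped on the TMM scale. Their log2 fold changes were -0.69 for *Thbs2* and from 0.13 to 0.26 for the rest. On library totals the groups did not overlap for *Thbs2*, which was lower in tissue labelled *Prom1*-KO. On that scale they did not overlap for 27.3% of all genes, and 0.618% of all genes were apart and higher. Without *Prom1*-KO replicate 3, the log2 fold change was 1.02 for *Thbs1*, 1.00 for *Cthrc1*, 0.75 for *Pcolce2*, 0.40 for *Ccn1* and -0.11 for *Spp1*, the last in place of 0.19. It was -0.99 for *Thbs2* and from 0.01 to 0.16 for *Postn*, *Tnc*, *Sparc* and *Ccn2*. None of the 10 passed the test there (edgeR), and none of the 5 lists of related genes had a gene called.

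In the same tissue libraries the skeletal muscle markers summed to 248, 512 and 723 CPM in WT and to 38, 174 and 649 CPM in tissue labelled *Prom1*-KO. *Myh4* had the highest mean CPM per kilobase of them. The fibroblast and stroma markers, of which *Dcn* had the highest such mean, were at 876, 1500 and 1650 CPM and at 897, 791 and 1640 CPM. Without *Prom1*-KO replicate 3 the muscle sums did not overlap, and the median log2 fold change of that list was -1.98 in place of -0.59, with none of 5 called (edgeR). With all libraries both sums overlapped between the groups and varied widely within them, and their part in the matricellular levels was not tested. Endothelial markers, with *Kdr* highest per kilobase in WT and *Cdh5* in tissue labelled *Prom1*-KO, were at 73.8, 154 and 104 CPM in WT and at 69.1, 61 and 43.3 CPM in tissue labelled *Prom1*-KO, all below the WT libraries, with none of the 6 markers called (edgeR). The part of these markers in the matricellular levels was not tested either.

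The order of the levels, per kilobase of exon, differed between culture and tissue. In WT mRPE the mean was 984 ± 138 CPM per kilobase for *Postn* (SD, n = 4), 804 ± 169 for *Sparc* and 501 ± 153 for *Spp1*. *Cthrc1* (154 ± 64.2) and *Ccn1* (134 ± 41) followed and were within their spread of each other, then *Thbs1* (78.4 ± 22.5), *Ccn2* (49.4 ± 8.97), *Thbs2* (42.3 ± 6.75) and *Tnc* (28.2 ± 6.28). *Pcolce2* was last at 0.219 ± 0.0522. Other neighbours in this order that lay within their SDs of each other were *Postn* and *Sparc*, *Sparc* and *Spp1*, *Ccn1* and *Thbs1*, *Thbs1* and *Ccn2*, and *Ccn2* and *Thbs2*.

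In KO22 the order changed. *Spp1* was first at 1370 ± 150 CPM per kilobase (SD, n = 3) and *Sparc* next at 453 ± 118, while *Postn*, at 35.9 ± 10.3, stood near *Tnc* (52.4 ± 12.4) and *Ccn1* (45 ± 14.3). Of the 10 genes' summed CPM per kilobase, *Postn* made up 31.4% to 38.3% in WT and 1.28% to 2.56% in KO22. On the same scale *Spp1* made up 10.3% to 21.9% in WT and 61.5% to 72.8% in KO22. In KO26, *Sparc* (1040 ± 18.9, n = 2) and *Postn* (824 ± 272) led.

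In WT tissue, *Sparc* (34.5 ± 9.45 CPM per kilobase, n = 3), *Spp1* (32.4 ± 3.84) and *Ccn2* (24.5 ± 4.96) led, and their spreads overlapped. *Postn* was at 2.92 ± 0.703 there and *Pcolce2* at 0.49 ± 0.0244. The summed level of the 10 genes, not per kilobase, was 13762 to 17264 CPM in WT mRPE and 383 to 462 CPM in WT tissue. The counts behind these CPM include the mitochondrial ribosomal RNAs. Their share was 15.3% to 19% in WT mRPE and 55.3% to 59.6% in WT tissue. The culture and tissue tables were scaled separately and no test was made between them.

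Across the 9 mRPE libraries, the genes with the pattern most like *Postn*, by Pearson's r of log2 CPM, were *Ablim1* (0.9978) and *Prkg1* (0.9973). For *Pcolce2* they were *Bmp2* and *Gm15609* (both 0.9955), for *Cthrc1* *Ebpl* (0.9946) and *Tmbim4* (0.9936), and for *Spp1* *Sirpa* (0.992) and *Spred2* (0.9798). For *Sparc* they were *Apaf1* (0.9861) and *Rhbdd1* (0.9854). The genes most like *Thbs1* were *Gm44443* (0.9835) and *4732440D04Rik* (0.9829), and those most like *Thbs2* were *Atad2b* (0.9902) and *Cep85l* (0.9806). *Emp2* (0.9837) and *Prdm1* (0.9723) were most like *Tnc*, *Mtres1* (0.9756) and *Jkamp* (0.9653) most like *Ccn1*, and *Ift56* (0.9837) and *Jkamp* (0.9796) most like *Ccn2*. The KO22 libraries stand apart from WT for all 10 matricellular genes and are shared by all the values, so the values describe these libraries and carry no test.

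Of 18 other matricellular and related genes tested, 6 were lower and 2 higher in KO22 than in WT. The median of their log2 fold changes was -0.09 against -0.03 over all genes. *Mgp*, the matrix Gla protein gene, was at 413 ± 95 CPM in WT (SD, n = 4) and 60.4 ± 6.44 CPM in KO22 (SD, n = 3), with a log2 fold change of -2.77 ± 0.19 (adjusted p = 4.99e-06). *Ccn3* was lower by a log2 fold change of -2.32 ± 0.24 (adjusted p = 5.39e-05). *Fbln1*, a fibulin gene, was higher by 3.58 ± 0.26 (adjusted p = 6.27e-06) and *Tnn*, a tenascin gene at low counts, by 1.78 ± 0.44 (adjusted p = 0.0077). In KO26 none of the 18 was lower and 1 was higher, *Ccn5*, by 2.05 ± 0.27 (adjusted p = 0.00617), while *Ccn5* in KO22 had -1.67 ± 0.24 (adjusted p = 0.000361). KO22 and KO26 differed in *Ccn5* by -3.75 ± 0.30 (adjusted p = 1.06e-05). The KO26 log2 fold changes were 0.75 for *Mgp* and -0.63 for *Fbln1*, and in tissue they were 0.62 and 0.57, or 0.31 and 0.89 without *Prom1*-KO replicate 3, with none called.

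Among 15 receptors of matricellular proteins tested in KO22, 5 were higher and 3 lower, and the median of the log2 fold changes was 0.70 against -0.03 over all genes. *Itga6*, an integrin subunit gene for laminin binding, was at 11.7 ± 3.32 CPM in WT and 136 ± 3.03 CPM in KO22 (3.54 ± 0.16, adjusted p = 6.62e-07). *Cd44*, whose product binds osteopontin and hyaluronan, was at 137 ± 6.1 CPM in WT and 439 ± 19.5 CPM in KO22 (1.68 ± 0.10, adjusted p = 2.28e-06). *Egfr* was lower (-2.44 ± 0.15, adjusted p = 2.7e-06), and so was *Itgb8* (-1.23 ± 0.12, adjusted p = 3.97e-05). In KO26 and in tissue, no receptor of the list was called in either direction, of 15 and 17 tested. There, *Itgb8* had -1.02 ± 0.17 in KO26 (adjusted p = 0.0144) and -1.58 ± 0.23 in tissue (adjusted p = 0.0693), each missing one limit.

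Of 21 YAP/TEAD target genes other than *Ccn1* and *Ccn2*, 6 were lower and 2 higher in KO22. Their median was -0.40 on the log2 scale, against -0.03 over all genes. *Crim1* (-1.93 ± 0.13, adjusted p = 4.01e-06) and *F3*, the tissue factor gene (-2.85 ± 0.20, adjusted p = 5.18e-06), were lower. *Nt5e*, an ectonucleotidase gene, was higher (3.60 ± 0.15, adjusted p = 4.71e-07), with means of 6.84 ± 1.61 CPM for WT and 79.8 ± 5.56 CPM for KO22. *Igfbp3*, at 0 counts in WT libraries other than replicate 3, which had 2 counts, was at 4.76, 1.45 and 1.47 CPM in KO22 and was the other gene called higher. None of the 21 was called in KO26 or in tissue. In KO26 *F3* was at 0.70 ± 0.21 and *Crim1* at -1.02 ± 0.15 on the log2 scale.

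Of 16 genes of TGF-beta signalling, 3 were lower in KO22. *Tgfbr2*, the type II receptor gene, was at 366 ± 16.3 CPM in WT and 66.7 ± 8.89 CPM in KO22 (-2.48 ± 0.12, adjusted p = 7.47e-07). The ligand gene *Tgfb2* was lower as well (-1.66 ± 0.12, adjusted p = 5.59e-06). None of the 16 was called in KO26 or in tissue.

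Of 13 genes of procollagen processing and fibrillar collagen, 6 were lower and none higher in KO22 with edgeR, and the median change was -0.58 on the log2 scale. *Col1a2* was at 5870 ± 839 CPM in WT and 1780 ± 214 CPM in KO22 (-1.74 ± 0.15, adjusted p = 1.8e-05), and *Col5a1* was lower too (-1.31 ± 0.11, adjusted p = 1.31e-05). In KO26 these were at 0.47 ± 0.17 and 0.34 ± 0.13, with none of the 13 called. In tissue none of 15 was called, and the median was -0.22 against 0.01 over all genes, or -0.45 without *Prom1*-KO replicate 3.

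Sums of markers of other cell types also differed in mRPE, and each followed its most abundant genes. The pericyte and smooth muscle markers summed to 937 to 1960 CPM in WT, 286 to 381 CPM in KO22 and 2190 and 1200 CPM in KO26, with *Acta2* highest per kilobase in each group, while *Myh11* was under 1 CPM in all 9 libraries. In KO22, 3 of them were called lower and 1 higher, *Cspg4* (1.86 ± 0.16 on the log2 scale, adjusted p = 1.52e-05). In KO26, *Rgs5* was called higher (2.55 ± 0.40, adjusted p = 0.0116). The endothelial sum was 153 to 236 CPM in WT, 3.49 to 5.4 CPM in KO22 and 74.1 and 56.7 CPM in KO26, with *Kdr* at 151 to 234 CPM in WT and 0.346 to 3.71 CPM in KO22, and with *Pecam1* under 1 CPM in all 9 libraries. Of these markers in KO22, *Kdr* and *Tek* were called lower and *Plvap*, from 0 to 29 counts, higher (1.82 ± 0.55, adjusted p = 0.0192), and *Vwf* was at 1.93 without passing the test. Of 5 scleral cartilage markers, 2 were analysed in mRPE. *Acan* was at 16.2 to 29.2 CPM in KO22, with 1 count in WT replicate 1 and 0 in the other WT libraries, and *Col2a1* had -1.26 ± 0.57 in KO22 (adjusted p = 0.0903). Their sum was 0.343 to 0.861 CPM in WT, 16.6 to 29.3 CPM in KO22, and 1.02 and 0.463 CPM in KO26. The part of these markers in the matricellular results was not tested.

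RefSeq promoters, 250 bases before to 50 after a start, were matched for 7 of the 10 genes, with 10 starts (GRCm38.p6). *Thbs1*, *Ccn2* and *Cthrc1* were not matched. Motifs were searched on both strands: GGAATG for TEAD, TGANTCA for AP-1, TATAAA for the TATA box and GGGCGG for the GC box, of which 14.7%, 7.8%, 13.6% and 35.7% of all 32851 promoters hold at least 1. The promoters of *Postn* (chr3:54360857-54361156, plus strand), which fell, of *Ccn1* (chr3:145649936-145650235, minus strand), which fell and is a YAP/TEAD target, and of *Pcolce2* (chr9:95637378-95637677, plus strand), which rose, are shown, with the motifs found in capitals. A match describes these letters only. The *Postn* promoter shown, 1 of 2, has 1 TATA box, and the other (chr3:54359017-54359316) has none of these motifs. *Ccn1* has 1 TEAD core, 1 TATA box and 2 GC boxes, and *Pcolce2* has 2 GC boxes.
Postn: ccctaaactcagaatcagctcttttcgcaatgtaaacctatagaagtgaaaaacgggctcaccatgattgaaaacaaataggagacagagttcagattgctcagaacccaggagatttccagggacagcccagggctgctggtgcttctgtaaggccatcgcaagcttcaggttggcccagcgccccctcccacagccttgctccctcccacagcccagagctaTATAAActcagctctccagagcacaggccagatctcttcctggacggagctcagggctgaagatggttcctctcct
Ccn1: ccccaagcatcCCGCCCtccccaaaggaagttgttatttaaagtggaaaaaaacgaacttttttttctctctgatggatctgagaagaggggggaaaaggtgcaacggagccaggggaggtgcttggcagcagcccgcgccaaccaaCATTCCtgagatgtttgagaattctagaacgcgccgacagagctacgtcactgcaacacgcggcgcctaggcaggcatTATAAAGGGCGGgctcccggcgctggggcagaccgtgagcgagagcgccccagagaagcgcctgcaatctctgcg
Pcolce2: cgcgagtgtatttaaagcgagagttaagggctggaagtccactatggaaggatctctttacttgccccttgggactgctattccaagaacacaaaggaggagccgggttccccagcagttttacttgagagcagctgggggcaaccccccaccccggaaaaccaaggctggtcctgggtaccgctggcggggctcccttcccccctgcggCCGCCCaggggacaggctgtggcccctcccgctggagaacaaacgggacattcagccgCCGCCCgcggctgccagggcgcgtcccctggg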

How the data were processed

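The authors trimmed reads with Trim Galore 0.6.7, aligned them to mm39 with STAR, and deposited raw counts per gene. The library kit is NEB stranded mRNA in the labels and TruSeq in the methods. The deposited normalized tables were not used here. From the counts, edgeR 4.0.16 in R 4.3.3 gave quasi-likelihood tests with TMM scaling, a minimum of 5 counts in 3 or more libraries for a gene, the batch as a term in mRPE, and Benjamini-Hochberg adjustment over all genes. Calls needed a log2 fold change beyond 1.2 in either direction and adjusted p below 0.05. KO22 was fitted with WT over 7 libraries, and KO26 over all 9, including both KO26 libraries. The study left out those KO26 libraries as outliers in its principal component analysis. SE is the absolute log2 fold change over the square root of F. Exon lengths and positions are from GENCODE on GRCm39, whose version may differ from the authors'. The procedure was tested on simulated data. DESeq2 1.42.0, other filters and scalings, other library sets and each library left out were alternatives; leaving out mitochondrially encoded genes was chosen after seeing the data. Named genes were the 10 members, up to 2 per direction of each gene list with the smallest adjusted p among those called in KO22, called list genes in tissue, marker genes by abundance, and the 2 genes most like each member by Pearson's r. *Ccn5*, *Cspg4*, *Rgs5*, *Plvap*, *Vwf*, *Tek*, *Pdgfra* and *Col2a1* were named after their values were seen. The members and lists were chosen with earlier results of these data known.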

Additional observations from a re-analysis of the deposited data

Results flagged for a closer look

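In WT mRPE (n = 4), a single library stood far from the other 3 for 3 of the 10 genes. *Ccn2* was low in replicate 2, at 115 CPM, *Cthrc1* was high in replicate 1, at 488 CPM, and *Pcolce2* was high in replicate 4, at 1.65 CPM from 23 counts. About 1 in 20 such groups would stand out by chance if their libraries were alike in batch. Replicate 1 is the only WT library of batch 8995. For *Cthrc1* the 8995 library was also the highest in KO22, at 48.2 CPM, and in KO26, at 454 CPM. A stray library and a batch difference cannot be told apart there.

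KO22 and KO26 differed past the limits on adjusted p and fold change, in the test between the clones (edgeR, fitted over 9 libraries), for 5 genes. The log2 fold change of KO22 against KO26 was -4.58 for *Postn*, 1.49 for *Spp1*, -1.43 for *Ccn2*, -3.06 for *Cthrc1* and 4.58 for *Pcolce2*. For *Thbs1*, *Ccn1* and *Cthrc1*, every KO22 library was below every WT mRPE library, while on the TMM scale every tissue library labelled *Prom1*-KO was above every WT tissue library, with tissue log2 fold changes of 0.92, 0.73 and 1.03. On library totals the tissue groups overlapped for all 3 genes, where *Prom1*-KO replicate 3 was at 41.62 CPM for *Thbs1*, 7.674 CPM for *Ccn1* and 2.509 CPM for *Cthrc1*. Over the 19118 genes tested in both tables, 1.75% had the groups apart in this way in both on the TMM scale. *Pcolce2* was above WT in both on the TMM scale, as were 1.73% of these genes. On library totals its tissue groups overlapped. The tissue changes of *Thbs1*, *Ccn1* and *Cthrc1* did not pass the test with edgeR; with DESeq2, *Thbs1* and *Cthrc1* passed the limit on p and not that on fold change, and *Ccn1* passed neither. The difference between culture and tissue was not tested.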

How the results depend on the processing

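Of the matricellular genes, the 8 called in KO22 against WT kept their direction and stayed past both limits under each alternative tried and with each library left out, with 2 higher and 6 lower. Without a fold limit, 5506 genes were higher and 5331 lower there, since fewer limits apply. All 10 matricellular genes then passed, with *Tnc* (0.85) higher and *Sparc* (-0.89) lower besides the 8. In KO26 against WT, 1 matricellular gene was lower with DESeq2, and 1 without a fold limit. Over all genes in KO26, DESeq2 called 269 lower, no fold limit gave 490 higher and 235 lower, no batch term 123 and 71, batch 9262 alone 425 and 256, and WT with KO26 alone 408 and 410. With libraries left out in turn, matricellular genes lower in KO26 were 0 to 1, and all genes 68 to 471 higher and 32 to 407 lower. Changes in KO26 that passed no limit turned direction: *Spp1* was at -0.06 with no batch term and *Postn* at 0.02 in batch 9262 alone. With libraries left out, *Tnc* ran from -0.31 to 0.30, *Sparc* from -0.05 to 0.55, *Spp1* from -0.13 to 0.22 and *Pcolce2* from -0.06 to 0.82.

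In KO22 against KO26, 8 matricellular genes passed without a fold limit. Of these, 5 were lower, and *Tnc* (0.81) joined those that were higher. Batch 9262 alone gave 1 higher and 5 lower. Over all genes, no fold limit gave 3388 higher and 3744 lower, and KO22 with KO26 alone 988 and 1348. With libraries left out, 1 to 2 matricellular genes were higher, *Thbs1* ran from -1.2 to 0.22 and *Thbs2* from -0.93 to 0. In tissue, DESeq2 called 83 genes higher and 188 lower, filterByExpr 1 higher, and leaving out mitochondrially encoded genes, chosen after seeing the data, 1 higher. With tissue libraries left out, 0 to 5 genes were higher and 9 to 37 lower, and *Spp1* ran from -0.11 without *Prom1*-KO replicate 3 to 0.35. With CPM on library totals in place of TMM, 9 of 50 group means of the matricellular genes moved by over 1 SD, all 9 in tissue. For the changed results, the cause was not tested. Where a KO26 library was left out, and in batch 9262 alone, the lone KO26 library was assumed to vary like the other groups. Single replicates were not paired between groups, because the labels give no replicate numbers. In mRPE, where batch 8995 holds 1 library of each group, the batch was fitted as a term.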
